A study of Mus musculus with 30 samples.

Results

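Small nucleolar RNA (snoRNA) genes were taken as the rows of the expression table whose symbol starts with Snord or Snora and a number. They were 99 of 14685 genes, 65 of them C/D box genes (Snord) and 34 H/ACA box genes (Snora). The study measured total RNA, depleted of ribosomal RNA, along an in vitro path from mouse embryonic stem cells (ESC) to blood progenitors, in cells with intact or mutated Sp1 or Sp3, a pair of zinc finger transcription factors that bind the same GC-rich promoter motif. There were 30 samples in 15 groups of 2, being 5 populations in each of 3 genotypes. All lines were on the E14 ESC background: wild type (WT), Sp1_deltaDBD (both alleles make a truncated Sp1 without its DNA-binding domain, so some Sp1 transcript remains) and Sp3KO (Sp3-/-). The populations were ESC, Flk1+ mesoderm cells taken from embryoid bodies with magnetic beads, and 3 populations sorted from blast culture: HE1, an early haemogenic endothelium (KIT+ CD41- Tie2+), HE2, a later one (KIT+ CD41+ Tie2+), and progenitors (KIT+ CD41+ Tie2-). Each mutant genotype was 1 cell line, HE1, HE2 and progenitors of a replicate came from the same kind of culture and were not independent of each other. The methods describe the samples of a group as biological replicates, without saying from which cultures they came.

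C/D box snoRNAs guide the methyltransferase fibrillarin to ribose positions in ribosomal RNA, and H/ACA box snoRNAs guide the pseudouridine synthase dyskerin. In mammals most are cut out of introns of other genes, the hosts, many of which encode ribosomal proteins, so that a snoRNA's level depends on host transcription and splicing and on the binding of core proteins that protect the trimmed RNA. A few snoRNAs guide cleavage of the ribosomal RNA precursor in place of a modification.

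The deposited values were quantile normalised FPKM (fragments scaled by gene length and library size), so every sample had nearly the same distribution and depth was unknown. Differences are given as log2 fold changes on the log2(FPKM + 0.1) scale, which understates the change of low genes, with limma standard errors and p-values adjusted within each comparison over the 14525 genes tested, called at 0.05. All 99 snoRNA genes were tested. Sp3 lay at 3.38 to 7.79 FPKM in the Sp3KO samples against 25.9 to 58.1 in WT, and Sp1 at 14.8 to 40.5 in Sp1_deltaDBD against 24.9 to 52.4 in WT. The stem cell markers Pou5f1, Nanog, Sox2 and Zfp42 summed to 995 FPKM or more in every ESC sample and to 2.03 or less in every blast culture sample. Of 5 cardiac and smooth muscle markers (Myl7, Tnnt2, Actc1, Acta2, Tagln), the summed level in HE1 was 356 and 1696 FPKM in WT, 248 and 995 in Sp1_deltaDBD and 123 and 195 in Sp3KO. In bulk samples fewer cells of a type and less RNA per cell cannot be told apart.

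All 99 genes were found in the GENCODE M21 annotation (build GRCm38), 97 of them as 1 gene and Snora16a and Snora43 as 1 of several genes of that symbol, so that reads of near-identical copies may be shared. The C/D genes were 64 to 238 bases long with a median of 79, and the H/ACA genes 121 to 196 bases with a median of 132. Of the 99, 95 lay inside a host gene on the same strand, with 71 different hosts, and 31 of the 95 lay in a gene for a ribosomal protein. Snora17, Snora43, Snord104 and Snord118 had no annotated host. In 47 genes the snoRNA overlapped an exon of some annotated host transcript, where reads of the host and of the snoRNA cannot be told apart. C/D genes had a median over genes of the mean FPKM of 13, and H/ACA genes of 20.9. The highest means were 234 FPKM for Snord17, 159 for Snord22 and 118 for Snord15b among C/D genes, and 418 for Snora74a, 251 for Snora78 and 127 for Snora68 among H/ACA genes. Snora78 lies antisense to Rps2, and its reads could be told from those of Rps2 only if counting used strand. The methods state default settings for alignment and counting and name no strand option. The 99 genes, chosen by symbol, held few of the snoRNAs known for roles outside modification. They were Snord118 (U8) and Snord22, known for work on the ribosomal RNA precursor, and Snora62, also of the processing group. Of the imprinted clusters they held Snord64 alone. Genes typed as snoRNA under other symbols were not sorted in this way.

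The sequences of the genes on which the results below turn are shown in the RNA's direction from GENCODE M21 (GRCm38), with the class boxes in capitals: in C/D genes a C box TGATGA within the first 20 bases and a D box CTGA within the last 20, and in H/ACA genes an H box ANANNA between bases 45 and 80 and an ACA within the last 8 bases. The first 9 were called higher in Sp3KO than in WT in HE1, HE2 and progenitors alike.
Snora44 (chr4:132309941-132310069, plus strand, in Snhg12): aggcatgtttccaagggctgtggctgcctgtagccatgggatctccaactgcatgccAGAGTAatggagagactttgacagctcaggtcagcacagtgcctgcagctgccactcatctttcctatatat
Snora52 (chr7:141448803-141448939, plus strand, in Rplp2): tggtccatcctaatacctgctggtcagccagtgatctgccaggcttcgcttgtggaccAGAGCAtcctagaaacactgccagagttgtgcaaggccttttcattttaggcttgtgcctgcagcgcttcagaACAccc
Snora17 (chr2:26639190-26639321, minus strand, no host): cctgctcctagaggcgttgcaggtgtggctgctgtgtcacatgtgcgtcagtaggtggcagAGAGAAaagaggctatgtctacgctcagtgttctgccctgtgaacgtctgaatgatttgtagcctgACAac
Snora3 (chr7:109520120-109520251, plus strand, in Rpl27a): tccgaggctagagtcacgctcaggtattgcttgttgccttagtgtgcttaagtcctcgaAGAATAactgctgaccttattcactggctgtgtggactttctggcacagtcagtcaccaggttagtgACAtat
Snord34 (chr7:45126601-45126670, minus strand, in Rpl13a): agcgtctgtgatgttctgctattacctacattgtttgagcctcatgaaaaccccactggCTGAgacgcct
Snord104 (chr11:106500993-106501062, plus strand, no host): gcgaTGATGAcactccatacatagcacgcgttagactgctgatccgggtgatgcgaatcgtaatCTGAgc
Snord49a (chr11:62603450-62603521, plus strand, in 2410006H16Rik): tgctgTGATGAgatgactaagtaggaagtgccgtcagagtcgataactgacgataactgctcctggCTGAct
Snord52 (chr17:34950952-34951017, minus strand, in 1110038B12Rik): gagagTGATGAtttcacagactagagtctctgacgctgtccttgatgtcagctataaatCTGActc
Snord83b (chr15:80078498-80078591, minus strand, in Rpl3): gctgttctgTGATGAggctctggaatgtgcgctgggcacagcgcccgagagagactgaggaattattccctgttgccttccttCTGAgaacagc
The next 3 are C/D genes with a large change in 1 comparison: Snord12 fell far from Flk1+ cells to HE1, Snord1b had the largest Sp3KO rise of a C/D gene in HE1, and Snord123 was lower in Flk1+ cells of both mutants.
Snord12 (chr2:167065276-167065365, plus strand, in Zfas1): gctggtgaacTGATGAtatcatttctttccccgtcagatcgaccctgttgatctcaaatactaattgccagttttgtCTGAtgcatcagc
Snord1b (chr11:116674148-116674222, plus strand, in 1810032O08Rik): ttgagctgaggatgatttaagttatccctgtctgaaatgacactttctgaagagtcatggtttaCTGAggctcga
Snord123 (chr15:32241853-32241923, minus strand, in Snhg18): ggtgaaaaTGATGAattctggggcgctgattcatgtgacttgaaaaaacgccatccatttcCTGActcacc

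In Snord34 and Snord1b the exact letters TGATGA were not in the first 20 bases, and in Snora44 no ACA was in the last 8. Over the classes, TGATGA stood in that window in 39 of 65 C/D genes (60.0%) and in 0 of 34 H/ACA genes, against 0.29% of 14460 other genes (first listed transcript). CTGA stood in the last 20 bases of 64 of 65 C/D genes (98.5%), against 11.8% of H/ACA genes and 8.17% of the other genes. The H box letters were found in 30 of 34 H/ACA genes (88.2%), against 27 of 65 C/D genes (41.5%) and 20.6% of the other genes. ACA stood near the end in 32 of 34 H/ACA genes (94.1%), against 9.23% of C/D genes and 13% of the others. These matches are letters in a window on the RNA strand, and no match says only that these letters are not there.

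In WT cells, snoRNA genes of both classes stood high in ESC and Flk1+ cells, fell in HE1 and were partly higher again in HE2 and progenitors. The median level over the 65 C/D genes was 19.2 and 15.8 FPKM in the ESC samples, 15.8 and 13.9 in Flk1+ cells, 4.36 and 4.61 in HE1, 6.29 and 6.12 in HE2, then 9.48 and 7.19 in progenitors. The median over the 34 H/ACA genes was 31.0 and 22.3 FPKM in ESC, 22.3 and 20.6 in Flk1+ cells, 6.34 and 9.87 in HE1, 12.5 and 14.5 in HE2, then 15.4 and 11.7 in progenitors. For both classes the HE1 samples lay below all other WT samples. HE1 was the WT population with the lowest group mean for 49 C/D and 31 H/ACA genes, and ESC the one with the highest for 38 and 23. The same counts were not made over all genes.

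**Figure D1:**
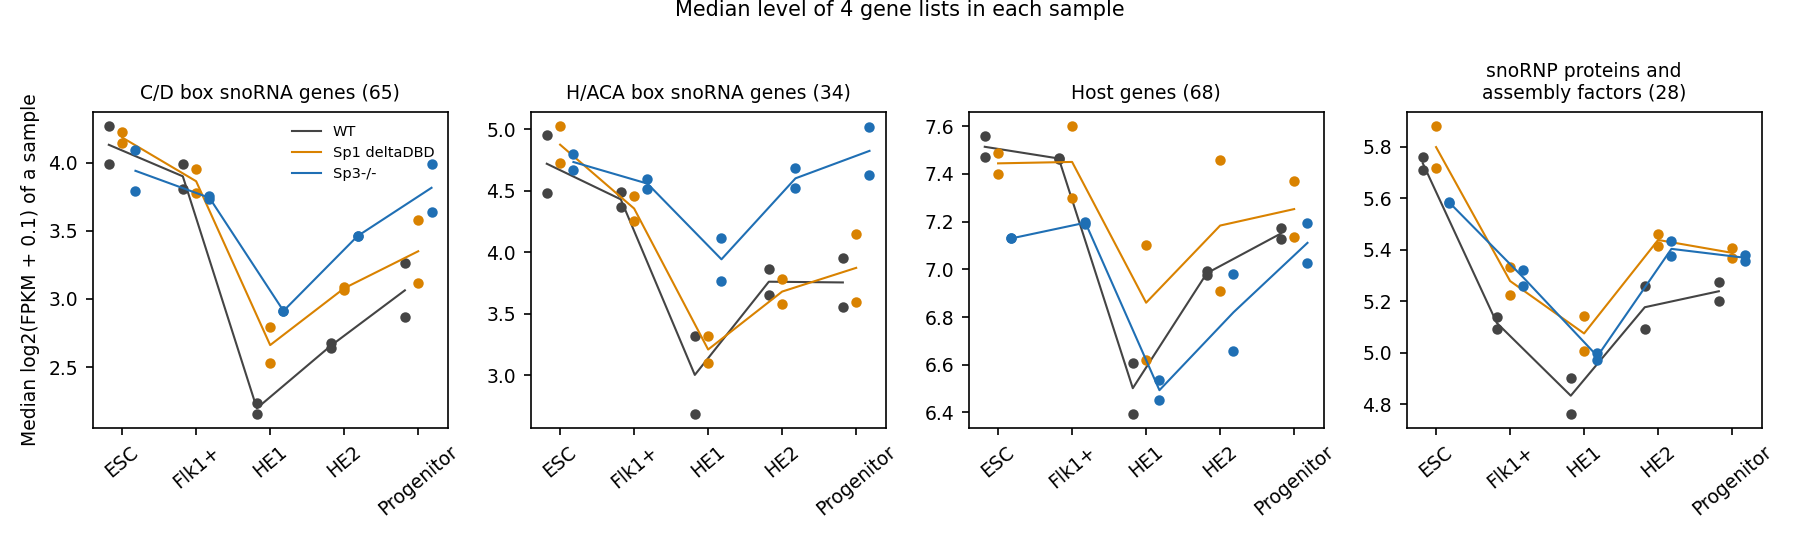
Median level of the C/D and H/ACA box snoRNA genes in each of the 30 samples (FPKM), by population and genotype, with 1 point per sample. In HE1, HE2 and progenitors both Sp3KO samples lie above both WT samples, for C/D genes at 7.42 and 7.43 FPKM against 4.36 and 4.61 in HE1.

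The step from Flk1+ cells to HE1 carried most of this change. From Flk1+ cells to HE1, 48 of 65 C/D and 22 of 34 H/ACA genes fell and none rose, where 29.5% of all tested genes fell and 23.5% rose. The median log2 change was -1.61 for C/D and -1.71 for H/ACA genes, against -0.08 over all genes. Snord64, a snoRNA of an imprinted region, was at 12.2 and 15.8 FPKM in Flk1+ cells and at 1.95 and 0.309 in HE1, a log2 change of -3.93 (SE 0.68, adjusted p = 8.3e-05). Snord12 was at 44.3 and 58.6 FPKM in Flk1+ cells and at 1.81 and 5.82 in HE1, a log2 change of -3.93 (SE 0.43, adjusted p = 4.67e-07). In both genes all 4 values kept the groups apart. The decrease was not uniform: Snora78 (-0.21, SE 0.55), Snord17 (-0.29, SE 0.47) and Snora74a (-0.77, SE 0.35), which are among the most abundant members, did not pass the test, nor did Snord71, with the highest value of 0.99 (SE 0.51). The muscle markers summed to 26.4 and 16.8 FPKM in the Flk1+ samples and to 1696 and 356 in HE1. The 5 fibroblast markers with a row, of 7 listed, summed to 11.2 and 16.2 and then 282 and 35.7. The part of either list in the fall was not tested.

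From ESC to Flk1+ cells 9 C/D genes fell and 3 rose, and 3 H/ACA genes fell and none rose, with backgrounds of 24.7% lower and 27.4% higher. All 4 members of the Rpl13a introns were lower, among them Snord34, at 261 and 219 FPKM in ESC and 93.1 and 97.0 in Flk1+ cells (log2 change -1.33, SE 0.12, adjusted p = 1.83e-08). The ranges of Snord34 did not overlap between the stages. Snord118 was higher in Flk1+ cells, at 58.7 and 44.1 FPKM against 16.7 and 7.64 in ESC (log2 change 2.16, SE 0.79, adjusted p = 0.0283). The largest falls were in Snord88a (-1.50, SE 0.55) and Snora34 (-1.42, SE 0.55). The call for Snord55 rested on values listed at 0 in both ESC samples, against 2.26 and 1.03 FPKM in Flk1+ cells.

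From HE1 to HE2, 10 C/D and 8 H/ACA genes rose and none fell, against 11.7% of all genes higher and 10.2% lower, and the median log2 change was 0.62 for C/D and 0.83 for H/ACA genes. Snord110, in an intron of the gene for the C/D core protein Nop56, had the largest called rise, 2.82 (SE 0.60, adjusted p = 0.00237). Snora17 went from 11.9 and 16.3 to 32.4 and 35.6 FPKM (log2 change 1.28, SE 0.20, adjusted p = 0.00019), with no overlap. From HE2 to progenitors no snoRNA gene was called by limma, where 5.46% of all genes were called higher and 7.78% lower, and 2 C/D and 3 H/ACA genes had an unadjusted p under 0.05. The decline to HE1 was called for 53 to 62 genes when any 1 sample was left out, and the rise to HE2 for 8 to 19, the lowest without WT HE1 replicate 1, the sample with the high muscle markers.

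**Figure D2:**
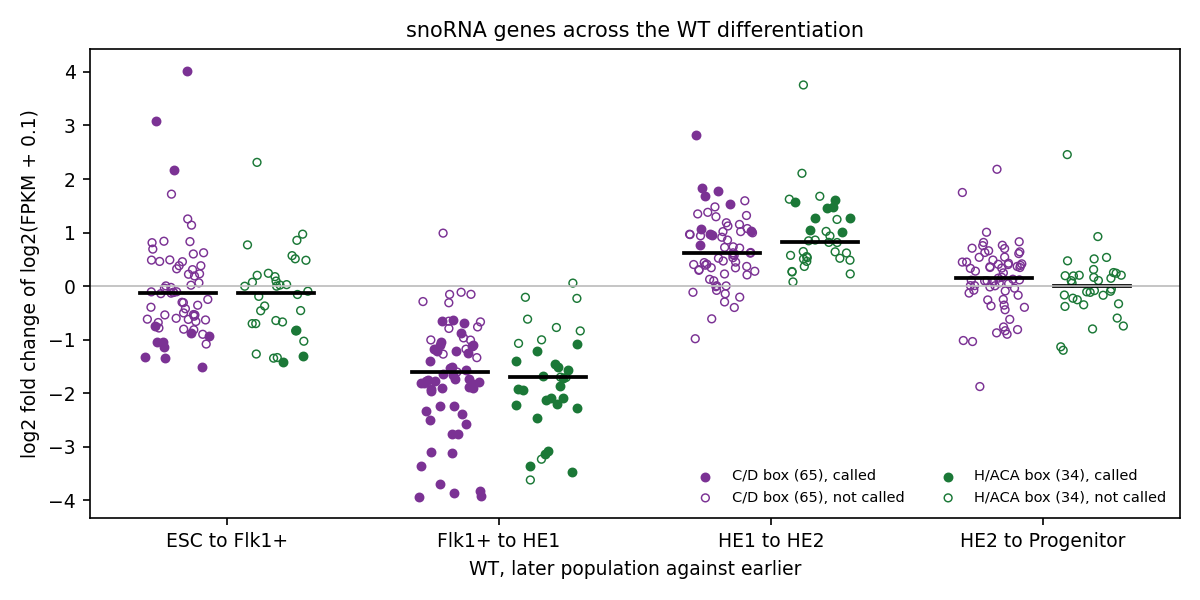
Log2 change of each snoRNA gene in the 4 WT steps (log2(FPKM + 0.1) scale), C/D and H/ACA genes apart, called genes filled, with the median of the class. In the step from Flk1+ cells to HE1 nearly all points lie below 0, with medians of -1.61 and -1.71.

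In Sp3KO cells, snoRNA genes of both classes were higher than in WT in the 3 blast culture populations, and few were called in ESC and Flk1+ cells. In HE1, 10 of 65 C/D and 10 of 34 H/ACA genes rose and none fell, where 6.02% of all genes rose and 4.87% fell. In HE2 the counts were again 10 and 10 higher and none lower, against 6.97% and 6.84%. In progenitors, 15 C/D and 11 H/ACA genes rose and none fell, against 3.88% and 4.77%. The median log2 difference of the C/D genes was 0.76 in HE1, 0.60 in HE2 and 0.87 in progenitors, that of the H/ACA genes 1.23, 0.88 and 1.13, and that of all genes tested 0.05, 0.03 and 0.04. With GC content and gene length corrected, the median of the C/D genes turned negative in all 3, to -0.33, -0.14 and -0.13, and that of the H/ACA genes was 0.28, 0.09 and 0.30. Both Sp3KO samples lay above both WT samples and both Sp1_deltaDBD samples for 42 of the 99 genes in HE1 (42.4%, against 16.7% of all genes), 37 in HE2 (37.4% against 18.7%) and 47 in progenitors (47.5% against 14.7%), and for 13 in ESC (13.1% against 16.5%) and 15 in Flk1+ cells (15.2% against 17.9%). In all, 34 genes were called higher in 1 or more blast populations, 19 C/D and 15 H/ACA.

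The study's own rule was a fold change above 2, without a test. Here it was kept to genes with a mean above 3 FPKM in WT or the mutant, a limit added here that leaves out low members. By it 37 snoRNA genes were higher in Sp3KO HE1 (1.84% of all genes), 31 in HE2 (1.83%) and 42 in progenitors (1.33%). None was lower (3.02%, 2.58% and 2.89%). In Sp3KO ESC 5 were higher (2.29%) and 5 lower (1.42%), and in Flk1+ cells 2 and 7 (2.38% and 2.06%).

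The calls by test rested on the spread shared over all 15 groups. Fitted on the 6 samples of a population alone, the number of snoRNA genes called in Sp3KO was 0 in HE1, 1 in HE2 and 1 in progenitors. The exact permutation test of 2 samples against 2 cannot go below p = 0.333. Without any 1 sample the counts were 8 to 19 in HE1 (8 without Sp3KO HE1 replicate 2, 11 without WT HE1 replicate 1), 5 to 16 in HE2 (5 without WT HE2 replicate 1, 9 without Sp3KO HE2 replicate 1, 11 without Sp3KO HE2 replicate 2) and 12 to 22 in progenitors (12 without Sp3KO replicate 2, 14 without WT replicate 2, 15 without Sp3KO replicate 1). Over all genes the Sp3KO difference moved with GC content (Spearman 0.12 in HE1, 0.35 in HE2, 0.12 in progenitors, over 14402 genes) and with gene length (-0.13, -0.12 and -0.12). Correction for GC content alone left 22, 21 and 27 genes higher and none lower. Correction for GC content and length together left 3 higher and 7 lower in HE1, and 5 higher and 3 lower in HE2 and in progenitors, but 90 of the 112 genes under 300 bases that set this trend were snoRNA genes themselves, so that length and membership cannot be told apart there. The 32 other genes under 300 bases, which can include snoRNA genes of other symbols, had median log2 differences of 0.17, 0.43 and 0.50.

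Of the 9 genes called higher in all 3 blast populations, Snora44 changed most. In HE1 it was at 3.0 and 10.8 FPKM in WT and 67.6 and 89.8 in Sp3KO, in HE2 at 10.8 and 23.5 against 81.4 and 169, and in progenitors at 11.1 and 4.65 against 76.3 and 92.5. Log2 differences were 3.75 in HE1 (SE 0.47, adjusted p = 0.000108), 2.88 in HE2 (adjusted p = 0.000939) and 3.53 in progenitors (adjusted p = 0.000236). It was also higher in Flk1+ cells, at 57.0 and 52.6 against 20.3 and 16.7 FPKM (1.57, SE 0.47, adjusted p = 0.0365), and in ESC it was at 64.5 and 81.1 against 36.5 and 39.0 without passing the test. In Sp3KO its level thus lay between 52.6 and 169 FPKM in every population, and in WT it fell from ESC to HE1.

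Snora52 was at 6.92 and 11 FPKM in WT HE1 and 38.0 and 38.0 in Sp3KO HE1, at 8.98 and 16.1 against 42.7 and 72.5 in HE2, and at 14.8 and 13 against 40.7 and 55.1 in progenitors. Its log2 differences were 2.11 (SE 0.26, adjusted p = 0.000105), 2.2 (adjusted p = 6.19e-05) and 1.77 (adjusted p = 0.000479). Snora17 was at 11.9 and 16.3 against 38.7 and 42.7 FPKM in HE1, 32.4 and 35.6 against 73.7 and 94.1 in HE2, and 25.9 and 31.1 against 76.7 and 54.3 in progenitors. Neither gene overlapped between genotypes in any of these populations. For Snora17, which has no annotated host, the differences were 1.54 (SE 0.20, adjusted p = 0.000124), 1.29 (adjusted p = 0.000586) and 1.18 (adjusted p = 0.00161). Snora44, Snora52 and Snora17 were called in all 3 populations whichever 1 sample was left out. With GC content and length corrected, Snora44 stayed called in all 3 populations. Snora52 stayed called in HE1 and HE2 but not in progenitors (0.90, limma adjusted p = 0.0558). Snora17 was then called in none of them, at 0.60, 0.48 and 0.31. Fitted on each population alone, none of these 3 genes was called in any (limma adjusted p = 0.0515 to 0.0974). Snora3 was at 6.46 and 9.66 against 23.5 and 24 FPKM in HE1 and at 5.48 and 12.1 against 33.3 and 32.3 in progenitors, differences of 1.58 and 2.0 (SE 0.33). In HE2 it was at 9.78 and 15.6 against 34 and 21.8 FPKM, a difference (1.13, adjusted p = 0.0286) that was called in 2 of the 4 fits without a sample and lost with the replicate block (adjusted p = 0.0502).

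Among the C/D genes, Snord104, which like Snora17 has no annotated host, was at 16.3 and 8.55 FPKM in WT HE1 and 54.3 and 34.8 in Sp3KO HE1, a difference of 1.87 (SE 0.32, adjusted p = 0.00124). In HE2 it was at 34.9 and 33.8 against 70.7 and 83.0 FPKM (1.15, adjusted p = 0.0217), and in progenitors at 28.1 and 22.7 against 64.9 and 87.9 (1.58, adjusted p = 0.00527). In ESC, with 53.3 and 44.9 against 53.4 and 62.9, it was not called. Snord34, an abundant snoRNA of Rpl13a, differed less but with a small spread: 57.5 and 61.0 against 77.3 and 87.5 FPKM in HE1 (0.47, SE 0.12, adjusted p = 0.0144), 71.5 and 67.2 against 96.3 and 115 in HE2 (0.60, adjusted p = 0.00291), and 63.7 and 62.8 against 123 and 116 in progenitors (0.92, adjusted p = 0.000133). Under the correction for GC content and length its sign turned in all 3, to -0.63, -0.27 and -0.13. The difference of Snord49a was 1.41 in HE1, 1.32 in HE2 and 1.41 in progenitors (SE 0.40), and that of Snord52 was 1.63, 1.28 and 1.69 (SE 0.36). Snord83b, at 0.84, 0.88 and 1.18 (SE 0.26), turned to -0.32 in HE1 and -0.22 in HE2 under the same correction. Under it Snord104, Snord49a and Snord52 were not called in any of the 3 populations. Unlike Snora44, Snora52 and Snora17, none of these C/D genes was called in all 3 populations whichever 1 sample was left out.

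**Figure D3:**
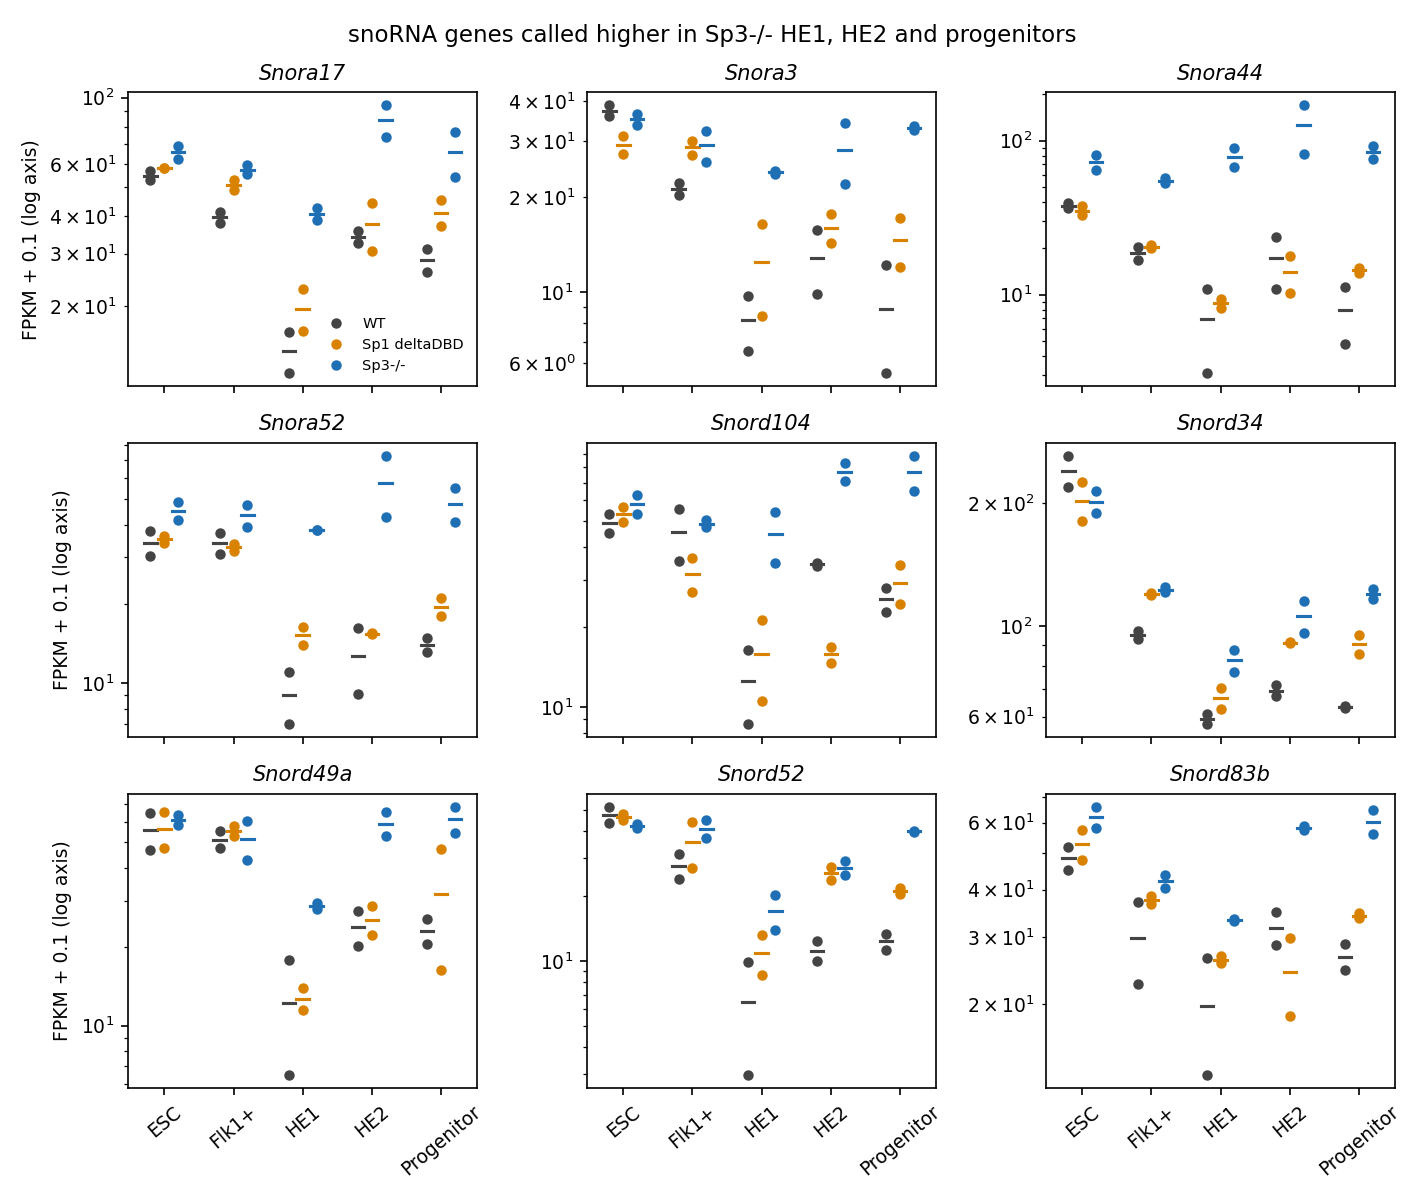
FPKM (log axis) of the 9 snoRNA genes called higher in Sp3KO in HE1, HE2 and progenitors, in each sample by population and genotype. In HE1, Snora44 lies at 67.6 and 89.8 in Sp3KO against 3.0 and 10.8 in WT and 9.22 and 8.11 in Sp1_deltaDBD.

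Other genes were called higher in 1 or 2 of these populations. Snord1b, in 1810032O08Rik, was at 0.574 and 1.91 FPKM in WT HE1 and 10.5 and 8.45 in Sp3KO HE1 (3.03, SE 0.52, adjusted p = 0.00124), while in ESC its Sp3KO values of 6.95 and 8.58 were under the WT values of 20.9 and 14.3, without a call. Snora20, with a difference of 2.70 (SE 0.84, adjusted p = 0.0442), was called in 1 of the 4 fits without a sample. Snord12, known from the noncoding host Zfas1, was called in HE2 (1.43, SE 0.43) and progenitors (2.18), where it was at 33.4 and 25.1 against 8.97 and 4.45 FPKM. Snora7a was called in HE2 (1.67, SE 0.43) and progenitors (1.78), as was Snora43 (1.61 and 2.14, SE 0.46). Of the snoRNAs known for precursor processing, Snord22 rose in HE2 (1.65, SE 0.47, adjusted p = 0.0246) and progenitors (1.63, adjusted p = 0.0357), and Snora62 in HE1 (1.74, SE 0.45, adjusted p = 0.0182) and progenitors (1.66, adjusted p = 0.0269). Snord22 was at 285 and 297 FPKM in Sp3KO progenitors and 121 and 73.5 in WT. Snora62 was at 9.28 and 8.95 FPKM in Sp3KO HE1 and 2.35 and 3.0 in WT. The calls of Snord22 were lost in every fit without 1 of the compared samples, and those of Snora62 in most. Snord118 was not called in any mutant.

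In Sp3KO ESC 2 C/D genes and 1 H/ACA gene were called higher and none lower, against 5.4% of all genes higher and 5.91% lower. Snord55 was listed at 0 in both WT ESC samples and was at 13.7 and 20.1 FPKM in Sp3KO ESC (adjusted p = 0.00416), with 2.40 and 1.09 in Sp1_deltaDBD; it lay between 2.47 and 20.1 in every Sp3KO sample. Snord23 was at 0.486 and 0.0295 FPKM in WT and 5.0 and 4.42 in Sp3KO (4.12, SE 1.02, adjusted p = 0.0132). With GC content and length corrected its difference was 1.77 (limma adjusted p = 0.378), and with GC content alone 2.64 (limma adjusted p = 0.169). Snora78 was at 207 and 75.3 FPKM in WT and 398 and 542 in Sp3KO (1.90, SE 0.55, adjusted p = 0.0325), a difference of -0.25 after correction for GC content and length. These 3 genes did not overlap between Sp3KO and WT. Their GC content was 63.3 to 65.1%, against a median of 45.9% over the 99. Over all genes the Sp3KO difference in ESC moved with GC content (Spearman 0.48). Of the 3, Snord55 alone stayed called with GC content corrected, with or without length. In Sp3KO Flk1+ cells, 1 C/D gene (Snord34, 0.37, SE 0.12) and 1 H/ACA gene (Snora44) were higher, and 2 C/D genes (Snord123, -2.50, SE 0.68, and Snord98, -1.63, SE 0.47) and 2 H/ACA genes (Snora75, -1.46, SE 0.42, and Snora65, -0.76, SE 0.22) lower, against 6.69% of all genes higher and 5.94% lower. Without any 1 Flk1+ sample, at most 1 of these 6 calls held, and none without Sp3KO Flk1+ replicate 1.

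Whether an Sp3KO effect in a later population differed from that in ESC was tested as a difference of differences. In HE1 it did for 3 C/D and 4 H/ACA genes, all with the higher effect in HE1 (background 1.42% higher and 0.744% lower), in HE2 for 1 of each class (0.296% and 0.248%), and in progenitors for 3 genes higher (0.737%) and 1 lower (0.606%). In Flk1+ cells limma called none, against 0.998% higher and 0.482% lower. Snord34 was called in HE1, HE2 and progenitors, Snora52 in HE1 and HE2, and Snord35a in HE1 and progenitors. Median differences of effect over the 99 genes were -0.13 in Flk1+ cells, 0.72 in HE1, 0.71 in HE2 and 0.93 in progenitors.

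Sp1_deltaDBD cells showed fewer changes. In ESC limma called none of the 99, against 2.8% of all genes higher and 3.26% lower, and 2 C/D and 1 H/ACA genes had an unadjusted p under 0.05. In Flk1+ cells only Snord123 was called, lower, against 2.62% lower and 2.92% higher over all genes. In HE1, 4 C/D and 1 H/ACA genes rose and none fell (5.69% and 4.35%), in HE2 7 C/D genes rose and 1 gene of each class fell (4.7% and 4.97%), and in progenitors 2 C/D and 1 H/ACA genes rose and none fell (3.75% and 5.04%). Blocked by replicate number, the counts became 1 in ESC, 8 in HE1 (7 higher and 1 lower) and 5 in progenitors. Without any 1 sample they ranged from 0 (without Sp1_deltaDBD replicate 2) to 9 (without WT replicate 2) in HE1, with 2 without WT replicate 1, from 0 (without WT replicate 1 or Sp1_deltaDBD replicate 2) to 7 in HE2, and from 2 to 6 in progenitors (6 without Sp1_deltaDBD replicate 2). Above a 2-fold change without a test, with the limit of 3 FPKM, 1 was higher and none lower in ESC (1.33% and 1.53% of all genes). The counts were 2 and 1 in Flk1+ cells (1.18% and 1.9%) and 14 and 1 in HE1 (1.43% and 2.83%). They were 6 and 6 in HE2 (1.32% and 2.68%) and 7 and 1 in progenitors (1.37% and 2.52%). The genes called higher were 5.05% of the 99 in HE1, 7.07% in HE2 and 3.03% in progenitors, near or little above the shares of all genes.

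Snord88c was at 1.86 and 1.49 FPKM in WT HE1 and 5.27 and 5.93 in Sp1_deltaDBD HE1 (1.69, SE 0.37, adjusted p = 0.00676), while Sp3KO HE1 was at 1.52 and 1.87. Snord12 rose in HE1 (1.56, SE 0.43, adjusted p = 0.0289) and HE2 (1.73, adjusted p = 0.0158), where it was at 10.5 and 21.8 against 3.91 and 5.14 FPKM. In both genes the Sp1_deltaDBD and WT samples did not overlap. In HE2, Snora5c, in the host Tbrg4, fell from 21.8 and 13.4 to 7.71 and 6.27 FPKM (-1.29, SE 0.27, adjusted p = 0.00458), and Tbrg4 was itself lower (-0.64, SE 0.14, adjusted p = 0.00788). Snord104 was lower in Sp1_deltaDBD HE2, at 14.6 and 16.8 FPKM (-1.13, SE 0.32, adjusted p = 0.0296), and higher in Sp3KO HE2. With GC content and length corrected its difference was -1.15 in Sp1_deltaDBD HE2, still called, and 0.14 in Sp3KO HE2, not called. In progenitors Snord89 was at 2.08 and 2.33 FPKM in WT, 10.6 and 8.99 in Sp1_deltaDBD (2.1, SE 0.39, adjusted p = 0.00211) and 6.64 and 12.7 in Sp3KO (2.02, adjusted p = 0.00391).

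The mutants shared their WT samples, so a gene called in both is not independent evidence. There were 8 such cases. Snord123 was at 0.857 and 2.2 FPKM in WT Flk1+ cells, 0 and 0.217 in Sp1_deltaDBD (-3.06, SE 0.68, adjusted p = 0.0109) and 0.0354 and 0.407 in Sp3KO (-2.50, adjusted p = 0.022), levels at which a few reads decide the value. The others were Snord35a in HE1, Snord12, Snord34 and Snord52 in HE2, Snord34 and Snord89 in progenitors, all higher in both, and Snord104 in HE2 with opposite signs. With the replicate block the Sp1_deltaDBD calls of Snord35a in HE1 (limma adjusted p = 0.0692) and Snord34 in HE2 (adjusted p = 0.0534) were lost.

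Compared directly, Sp3KO exceeded Sp1_deltaDBD in the blast populations. In HE1, 7 C/D and 10 H/ACA genes were higher in Sp3KO and 2 C/D genes lower (6.83% and 6.74% of all genes), in HE2 9 and 12 were higher and 2 and 1 lower (7.41% and 8.45%), and in progenitors 7 and 9 were higher and none lower (5.51% and 6.09%). In ESC limma called none, with 4.3% higher and 5.37% lower over all genes and 4 C/D and 3 H/ACA genes at an unadjusted p under 0.05, and in Flk1+ cells Snora5c was higher and Snord98 lower (3.61% and 3.78%). Snora44 led in HE1 (3.16, SE 0.47, adjusted p = 0.000239), HE2 (3.13) and progenitors (2.54). Snora5c, at 17.7 and 20.5 FPKM in Sp3KO and 6.33 and 6.61 in Sp1_deltaDBD HE1, was also higher in all 3 (1.54, 1.79 and 1.33, SE 0.27). Snora78 was higher in all 3 too (2.30, 2.46 and 1.75, SE 0.55). Snord88c and Snord47 were lower in Sp3KO HE1 (-1.67, SE 0.37, and -1.94, SE 0.58). Without any 1 sample the counts ran from 4 to 18 in HE1 (4 without Sp1_deltaDBD replicate 2), 8 to 18 in HE2 (8 without Sp3KO replicate 2) and 4 to 18 in progenitors (4 without Sp3KO replicate 2), and in a population fitted alone they were 4, 3 and 0.

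Of the 99 genes, 92 had a host in the table, with 68 different hosts. In Sp3KO, 3 of the 68 hosts were called higher and 2 lower in HE1 (6.02% and 4.87% of all genes), 2 and 7 in HE2 (6.97% and 6.84%), and 2 and 1 in progenitors (3.88% and 4.77%). In ESC 3 were higher and 11 lower (5.4% and 5.91%), and in Flk1+ cells 1 and 9 (6.69% and 5.94%). The median log2 difference of the hosts between Sp3KO and WT was 0.08 in HE1, 0.01 in HE2 and 0.00 in progenitors. The snoRNA's difference exceeded that of its host in 78, 71 and 83 of the 92 pairs. Of the snoRNA genes called higher that had a host in the table, 16 in HE1, 17 in HE2 and 21 in progenitors, the host was called higher for 1, 2 and 0, and lower for none.

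**Figure D4:**
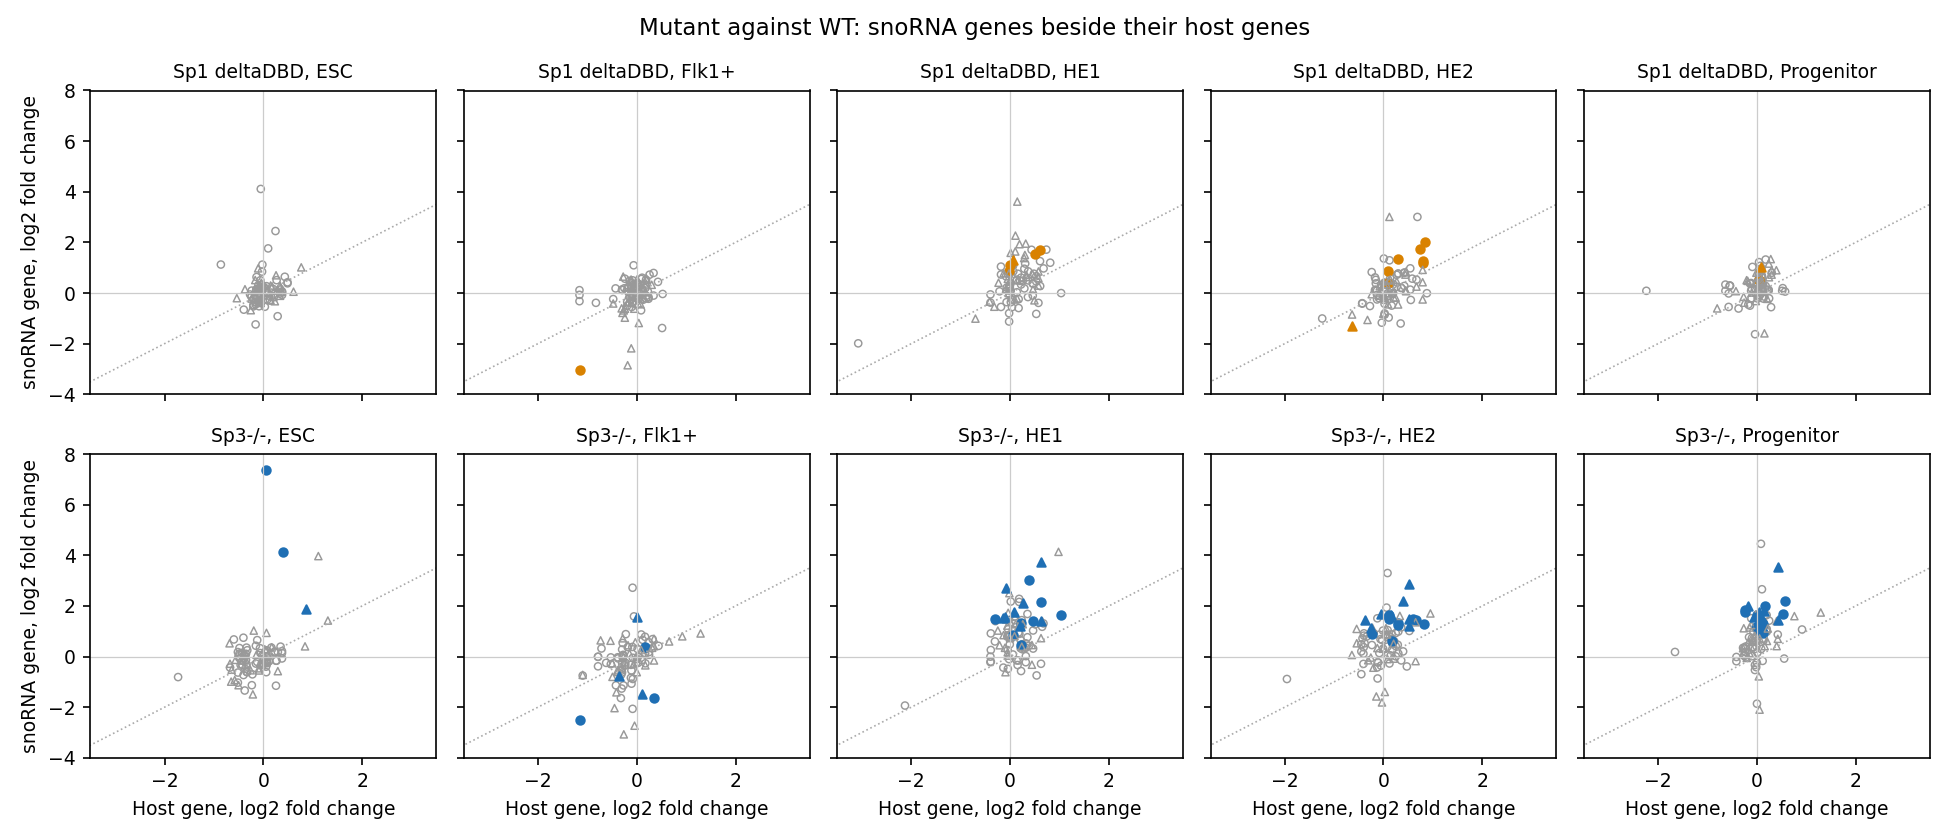
Log2 difference from WT of each snoRNA gene plotted against that of its host gene, for both mutants in each population. Circles are C/D and triangles H/ACA genes, filled where the snoRNA gene was called. In Sp3KO progenitors 83 of the 92 pairs lie above the line of equal change.

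Snhg12, a noncoding host of 4 members, was at 11.6 and 19.1 FPKM in WT HE1 and 23.4 and 22.6 in Sp3KO HE1, a difference of 0.63 (SE 0.25) that was not called, nor were its differences of 0.52 in HE2 and 0.42 in progenitors. Its members moved unequally: Snora44 as above, Snora61 higher in HE2 (1.19, SE 0.24) and progenitors (1.45), Snora16a higher in HE1 (1.39, SE 0.30) and HE2 (1.48), and Snord99 in none of these. All 4 overlap annotated exons of Snhg12. Rpl13a, the host of Snord32a, Snord33, Snord34 and Snord35a, differed by 0.21 (SE 0.15) in HE1 and 0.13 in progenitors, without a call, while Snord35a differed by 1.32 (SE 0.26, adjusted p = 0.00316) and 1.3 (adjusted p = 0.00458). For Rplp2, the host of Snora52, the differences were 0.26 (SE 0.18) in HE1, 0.39 in HE2 and 0.04 in progenitors. Rplp2 was called higher in ESC (0.84), where Snora52 was not. Snora52 overlaps an annotated exon of Rplp2, and Snora3 one of its host Rpl27a. The medians split by overlap with a host exon showed no one direction. In HE1 the median was 0.64 over 28 overlapping and 0.78 over 35 other C/D genes. For H/ACA genes it was 1.20 over 19 and 1.29 over 13 in HE1, and 0.88 and 0.06 in HE2. More H/ACA calls lay in overlapping genes: 7 of the 19 and 2 of the 13 were higher in HE1. In HE2 these were 8 and 0, and in progenitors 7 and 2. Of the C/D genes, 2 of the 28 and 7 of the 35 were called higher in HE1. In HE2 these were 4 and 5, and in progenitors 6 and 8. In the WT step to HE1 the hosts fell too, by a median of -0.39, and the median of snoRNA minus host was -0.95. Of the 65 snoRNA genes with a host in the table that fell there, 39 had a host that fell.

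Sp1 and Sp3 share the GC box, so the promoters of the hosts were searched for the letters GGGCGG on either strand, in windows around RefSeq gene starts that lie mostly upstream (GRCm38.p6). They were found in 42 of 57 host promoters matched (73.7%) and in 5 of 6 of the hosts of the 9 genes called in all 3 blast populations (83.3%), against 63.0% of 11139 promoters of genes in the table and 35.9% of all 27025. The match is a description of the sequence and no evidence of binding.

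In a list of 28 proteins that bind, assemble or trim snoRNAs, Sp3KO cells had 5 higher in HE1 (17.9%, against 6.02% of all genes), 3 in HE2 (10.7% against 6.97%) and 3 in progenitors (10.7% against 3.88%), and none lower. In ESC 3 were higher (10.7% against 5.4%) and 1 lower, and in Flk1+ cells 1 was higher (3.57% against 6.69%) and none lower. The median log2 difference of the list was 0.23 in HE1, 0.16 in HE2 and 0.12 in progenitors. Fbl, the C/D methyltransferase fibrillarin, was higher in HE1 (0.64, SE 0.11, adjusted p = 0.000956), HE2 (0.50, adjusted p = 0.00476) and progenitors (0.55, adjusted p = 0.00372). Gar1, a core protein of H/ACA particles, was higher in the same 3 (0.83, SE 0.23, 0.82 and 0.75). Snu13, which binds the kink turn of C/D snoRNAs, was higher in HE1 (0.50, SE 0.13) and progenitors (0.41). Dkc1, the pseudouridine synthase dyskerin, was higher in HE1 alone of these comparisons (0.62, SE 0.18), and Nop56 was higher in HE1 (0.35, SE 0.11) and lower in ESC (-0.43). In Sp1_deltaDBD 4 were called higher and 2 lower, summed over the 5 populations. Of all genes, 2.8% to 5.69% were called higher and 2.62% to 5.04% lower in each population. Nop58 (0.53, SE 0.15), Dkc1 (0.68, SE 0.18) and the nuclease Xrn2 (0.45, SE 0.12) were higher in HE1, and Ruvbl2, an assembly ATPase, in ESC (0.51, SE 0.14). Gltscr2 was lower in Flk1+ cells (-0.43, SE 0.11) and Znhit3, an assembly factor, in HE2 (-0.88, SE 0.23). In the WT step to HE1, 20 of the 28 fell (71.4%, against 29.5% of all genes) and none rose, among them Naf1, the H/ACA assembly factor (-1.53, SE 0.19), Gar1 (-1.28), Nop58 (-1.22) and Dkc1 (-1.17), and from HE1 to HE2 11 rose (39.3% against 11.7%) and none fell. Fitted by population alone, 2 of the 16 Sp3KO calls and 0 of the 6 Sp1_deltaDBD calls of this list were made.

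Other small noncoding RNA genes, 30 in the table, were those outside the symbol rule. Several of them are typed as snoRNA in the annotation, among them AF357425, Gm24148 and Rnu73b, so this list is not free of snoRNAs. It had 4 higher and 4 lower in Sp3KO HE1 (6.02% and 4.87% of all genes) and 5 and 1 in HE2 (6.97% and 6.84%). In progenitors it had 3 and 0 (3.88% and 4.77%). The median log2 differences were 0.33, 0.54 and 0.59. In ESC they had 2 higher and 5 lower (5.4% and 5.91%). Replicates of a group differed more for snoRNA genes than for genes in general: the median absolute log2 difference between the WT HE1 samples was 0.53 for C/D, 0.62 for H/ACA and 0.24 for all genes, and between the Sp3KO HE1 samples 0.51, 0.25 and 0.14.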

How the data were processed

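RNA was measured in 30 samples of 15 groups. Per the paper's methods and the labels, libraries were made from total RNA after ribosomal RNA depletion with a stranded kit, reads were aligned to mm10 with HISAT2 2.1.0 and quantified with StringTie 1.3.3 (versions from the submitters' processing notes), genes above 1 FPKM in at least 1 sample were kept, and the authors quantile normalised the FPKM values. Alignment and quantification used default settings, with no strand option named, and the annotation is not given in the sources used here. The deposited unit is FPKM, so depth per sample is unknown and no counts or counting intervals can be given. Values of 0 before normalisation became each sample's lowest value, shared by 398 to 1660 genes. In HE1 such genes numbered 987 and 1346 in Sp3KO against 924 and 795 in WT. In HE2 they numbered 1239 and 1499 against 784 and 891, and in progenitors 1660 and 1199 against 858 and 910. Sp1_deltaDBD progenitors had 1216 and 1294. The part of this in the snoRNA differences was not tested. Many snoRNAs are shorter than the usual library fragment, and FPKM of such short genes depends on how length was treated in counting.

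Columns were matched to samples by title and groups taken from the labels. Values were taken as log2(FPKM + 0.1), and limma 3.58.1 (R 4.3.3) fitted 15 group means with a mean-variance trend over the 14525 genes whose highest value passed 1 FPKM. There were 27 comparisons: 10 of a mutant with WT, 4 WT steps, 5 of the mutants with each other and 8 of an effect with that in ESC. The p-values were adjusted by Benjamini and Hochberg within each comparison and are two-sided. The fit recovered known changes in simulated data. There the errors were independent between samples and the changed genes were not low ones. It therefore gives no error rate for samples that deviate together or for low members. Alternatives were a pseudocount of 1, no low filter, the replicate number as a block, each population alone and WT samples alone. Others were correction for GC content and gene length (loess, span 0.3) and each sample left out. The study's fold change above 2 without a test was also used, for genes with a mean above 3 FPKM in WT or the mutant. Correction for GC content alone was added after seeing the data. Same-numbered WT and Sp1_deltaDBD samples deviated together in all 5 populations (correlation 0.255 to 0.481), so the blocked counts are given beside the Sp1_deltaDBD results. Gene structure came from GENCODE M21 by symbol or synonym (Python 3.11.15, pandas 2.3.3), promoters from RefSeq. The members, gene lists and tests were chosen with earlier results of these data known, and the histone list after seeing values. Genes were named where they had the largest called changes in a comparison, were called in 3 or more populations or in both mutants, were most abundant in their class, were listed at 0, or belonged to the processing or imprinted groups. Of the marker lists, 5 of 7 fibroblast, 2 of 3 neural and 0 of 3 endoderm markers had a row in the table.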

Additional observations from a re-analysis of the deposited data

Results flagged for a closer look

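The effect of a mutant in a later population differed from its effect in ESC for 18 pairs of a snoRNA gene and a population, by the limma test of the difference itself. Each value is the effect there minus the effect in ESC on the log2 scale, and the WT and mutant ESC samples enter every one of them. For Sp3KO in HE1 the differences were 4.18 in Snord1b (3.03 against -1.15 in ESC, adjusted p = 0.008), 2.81 in Snora44 (adjusted p = 0.0354), 1.71 in Snora52 (adjusted p = 0.0214), 1.62 in Snora16a (adjusted p = 0.0486), 1.58 in Snord35a (adjusted p = 0.0303), 1.28 in Snora17 (adjusted p = 0.0243) and 0.72 in Snord34 (adjusted p = 0.0313). For Sp3KO in HE2 they were 1.8 in Snora52 (adjusted p = 0.0304) and 0.85 in Snord34 (adjusted p = 0.0252). For Sp3KO in progenitors they were 2.09 in Snora3 (adjusted p = 0.0356), 1.56 in Snord35a (adjusted p = 0.0409) and 1.17 in Snord34 (adjusted p = 0.00236). In Snord23 the difference there was -5.99 (-1.86 against 4.12 in ESC, adjusted p = 0.0456), and its Sp3KO progenitor values were 0.0234, the lowest value of that sample, and 3.24 FPKM. For Sp1_deltaDBD the difference was -4.18 in Snord123 in Flk1+ cells (adjusted p = 0.0323), where all values were at or under 2.2 FPKM. It was -1.43 in Snora5c (adjusted p = 0.0496) and 0.63 in Snord34 (adjusted p = 0.0466) in HE2, and 0.75 in Snord34 (adjusted p = 0.0194) and 2.46 in Snord89 (adjusted p = 0.0208) in progenitors. What lies behind these differences was not tested.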

How the results depend on the processing

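All values are numbers of genes called, and the cause of a change was not tested. No alternative without a low filter changed a count by over 1.5 times. With a pseudocount of 1 the snoRNA genes called were 3 in Sp1_deltaDBD HE1, 1 from WT HE2 to progenitors, 1 between the mutants in ESC, and 4 and 8 for the Sp3KO effect in HE2 and progenitors against ESC, and 3 other small RNA genes were called over the 5 Sp1_deltaDBD comparisons. With the replicate block the counts were 1, 8 and 5 in Sp1_deltaDBD ESC, HE1 and progenitors, 1 from WT HE2 to progenitors, 2 between the mutants in ESC, 3 for the Sp1_deltaDBD effect in HE1 against ESC and 5 other small RNA genes in Sp1_deltaDBD; no other count left the 1.5-fold range. Same-numbered WT and Sp3KO samples deviated together weakly (correlation 0.00318 to 0.194), so those samples may share only a number. With GC content and length corrected, Sp3KO had 1 higher and 4 lower in ESC and 0 and 3 in Flk1+ cells. It had 3 and 7 in HE1, and 5 and 3 in HE2 and in progenitors. Sp1_deltaDBD had none higher and 2 lower in HE1 and 1 higher in progenitors, with 3 other small RNA genes. With the block as well, Sp3KO had 1 higher and 7 lower in ESC, 4 and 6 in HE2 and 10 and 3 in progenitors. Sp1_deltaDBD ESC then had 1 higher, and there were 6 other small RNA genes. Both corrections turned Snora78 in Sp3KO ESC (-0.25), Snord34 in HE1, HE2 and progenitors (-0.63, -0.27 and -0.13) and Snord83b in HE1 and HE2 (-0.32 and -0.22). GC content alone gave 1 in Sp3KO ESC and 3 in Flk1+ cells. Each population fitted alone gave 13, 0, 1 and 1 in Sp3KO Flk1+ cells, HE1, HE2 and progenitors, 2, 2, 2 and 0 in Sp1_deltaDBD, and 4, 5, 4, 3 and 0 between the mutants from ESC to progenitors. It also gave 0 and 2 snoRNP genes, 3 and 17 host genes in Sp1_deltaDBD and Sp3KO, and 5 other small RNA genes in Sp3KO. A fold change above 2 without a test, with the limit of 3 FPKM, gave 1, 3, 15 and 8 in Sp1_deltaDBD ESC, Flk1+ cells, HE1 and progenitors. It gave 10, 37, 31 and 42 in Sp3KO ESC, HE1, HE2 and progenitors, and 19 and 50 other small RNA genes.

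Without 1 sample, the counts were 0 to 1, 0 to 1, 0 to 9, 0 to 7 and 2 to 6 in Sp1_deltaDBD and 1 to 3, 0 to 1, 8 to 19, 5 to 16 and 12 to 22 in Sp3KO, from ESC to progenitors. They were 5 to 11, 53 to 63, 8 to 19 and 0 to 2 in the WT steps, and 0 to 1, 0 to 2, 4 to 18, 8 to 18 and 4 to 18 between the mutants. Against ESC they were 0 to 2, 0 to 2, 0 to 2 and 0 to 3 for Sp1_deltaDBD and 0 to 1, 1 to 10, 0 to 2 and 1 to 3 for Sp3KO. The snoRNP genes gave 3 to 9 and 12 to 17, the hosts 14 to 23 and 31 to 42, and the other small RNA genes 0 to 3 and 18 to 25. A sample left alone in its group was assumed to vary like the other groups. Of the named genes' calls, 425 were lost and 439 kept over these fits. With 2 samples a group and unknown depth, low members such as Snord123 cannot be resolved.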

Other observations

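Snora26, singled out after its values were seen, dropped in single samples: it was at 50.6 and 0.193 FPKM in WT ESC, 47.0 and 0.289 in Sp1_deltaDBD ESC, 25.9 and 0.170 in Sp1_deltaDBD Flk1+ cells and 0.169 and 8.86 in WT HE1, and between 5.71 and 86.0 in the other 22 samples. It overlaps an exon of its host Dancr, and its differences were not called in any mutant. Among 69 histone genes, a list added after seeing the data, 49 were called higher in Sp3KO ESC (5.4% of all genes) and 21 in Flk1+ cells (6.69%). In HE1 27 were higher (6.02%), in HE2 18 (6.97%) and in progenitors 3 (3.88%). None was lower (5.91%, 5.94%, 4.87%, 6.84% and 4.77% of all genes, from ESC to progenitors). Of the 99 snoRNA genes, 3 were higher in ESC and 26 in progenitors, against the same shares. The difference in order was not tested. The Sp3KO blast samples held less of the muscle marker transcripts than WT in HE1 (123 and 195 against 356 and 1696 FPKM), while in HE2 they were at 116 and 138 against 70.7 and 438 and in progenitors at 56.8 and 69.1 against 77.2 and 262. Its part in the snoRNA differences was not tested.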
